A study of Mus musculus with 115 samples.

Results

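Voltage-gated sodium and calcium channel genes were followed in single granule cells of the mouse dentate gyrus. The members were the rows of the count table whose symbol was Scn followed by a number and a or b, or began with Cacna, Cacnb or Cacng. This rule gave 40 of 22870 genes and used no measured value. By role they were 10 sodium pore genes, 4 sodium beta genes, 7 pore genes of high-voltage-activated and 3 of low-voltage-activated calcium channels, 4 alpha2delta genes, 4 calcium beta genes, 2 gamma genes (Cacng1 and Cacng6) and 6 Cacng genes of AMPA receptor auxiliary subunits. In all, 28 members were counted in at least 10% of the cells after each cell was thinned to 1000000 counts, as were 11282 of all genes, and these 28 were compared between groups.

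All cells came from Rbp4-Cre transgenic mice, which carry Cre recombinase under the Rbp4 promoter. A retrograde virus, retroAAV-EGFP, was given into the right, contralateral ventral hippocampus, so that EGFP marks cells that took it up, and the left, ipsilateral hippocampus received AAV.cDIO-mCherry with saline or with kainic acid (KA). KA is a glutamate receptor agonist that provokes seizures, and mCherry is made only where Cre is present. After 2 weeks the cytosol of single granule cells of the ipsilateral side was drawn into a patch pipette, whether or not the cell carried mCherry. The 4 groups were saline EGFP- (27 cells), saline EGFP+ (5 cells), KA EGFP- (36 cells) and KA EGFP+ (27 cells), so both viruses and the transgene were shared by all of them. The study states 9 mice for KA EGFP+ cells and 3 for each other group, and no label ties a cell to a mouse. Each group was therefore handled as a single sample, no test was made, and differences are set beside the SD over cells. The number in each cell's title forms a first series (M1 to M48), which holds KA cells only, and a second series (M201 to M272), which holds every saline cell and the KA cells that remain. What the series stand for is not stated.

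Sodium channel pore proteins open on depolarisation and carry the upstroke of the action potential, and their beta subunits set gating, surface level and anchoring at the axon initial segment. Calcium channel pore proteins turn depolarisation into calcium entry for transmitter release, dendritic signalling and gene expression. Beta and alpha2delta subunits bring them to the membrane, while most Cacng genes encode auxiliary subunits of AMPA receptors, not of calcium channels. Granule cells are known for sparse firing, which these channels help to set.

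Total counts per cell ran from 1277978 to 56183007 (median 5221619). Of the KA EGFP- cells, those of the first series had a median of 6974 genes with a count and those of the second 3707, whereas the saline EGFP- cells had 4448. All 10 granule cell markers were in the table and no cell had all of them at 0. Their summed level in CPM, counts scaled to a total of 1000000 per cell, was 351 to 6831 (median 3543) for saline EGFP-, 220 to 3402 (median 2284) for saline EGFP+, 5.77 to 6508 (median 948) for KA EGFP- and 23.7 to 4547 (median 1051) for KA EGFP+, and Tdo2 was at 0 in all KA cells. The 12 microglia markers summed to a median of 194, 25181, 79.3 and 135 CPM in that order. Cells in which these markers took 0.1% or more of the counts numbered 9, 4, 4 and 10, and values without these cells are given with the results. The part of the granule cell marker differences was not tested.

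Cells of 1 group differed widely in these genes. A saline EGFP- cell had a count in 5 to 23 of the 40 members (median 15), a KA EGFP- cell in 3 to 26 (median 17) and a KA EGFP+ cell in 4 to 26 (median 20). The summed level of the 40 members was 2.14 to 5651 CPM (median 1509) for saline EGFP-, 92.3 to 1752 (median 429) for saline EGFP+, 500 to 6409 (median 2268) for KA EGFP- and 576 to 4658 (median 1953) for KA EGFP+. The groups overlapped over most of their range. Across the 95 cells, the number of members with a count followed the number of genes with a count (Spearman's rho 0.899, and 0.85 after thinning). This is a description only, since both numbers come from the same library.

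**Figure D1:**
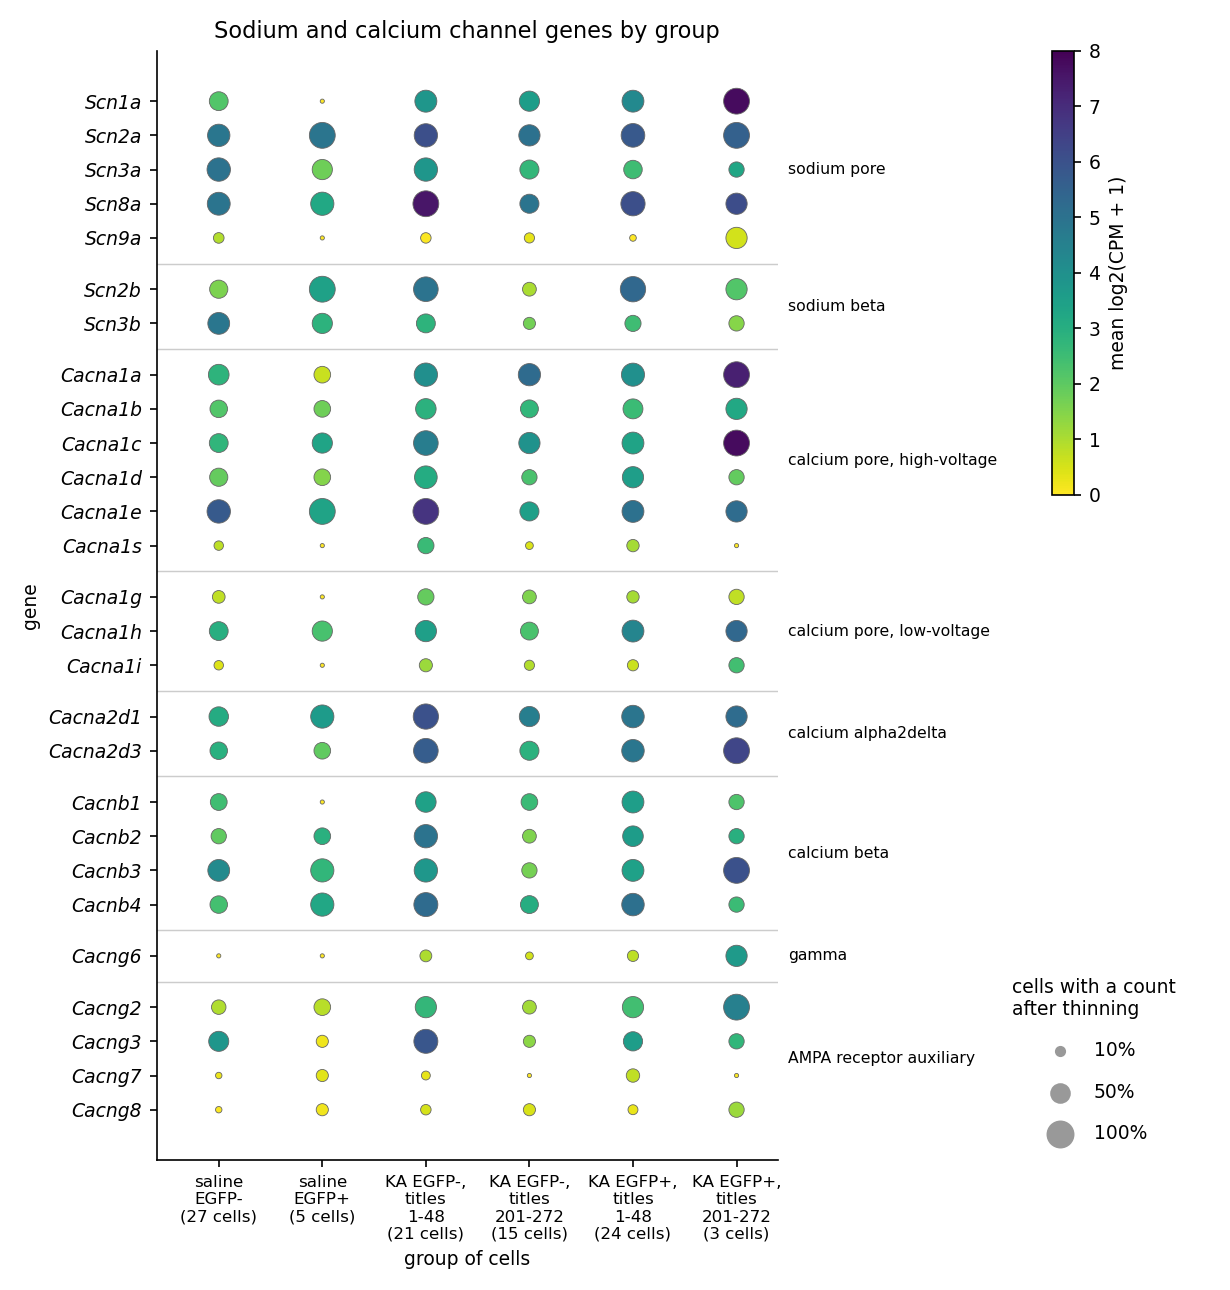
Members compared (27 drawn as rows, by role) in 6 sets of cells (columns). Colour is the mean of log2(CPM+1) over cells, and the area of a dot grows with the percent of cells that have a count after thinning to 1000000 counts. Scn3b, Scn3a and Cacnb3 are paler in the KA EGFP- cells of both series than in the saline EGFP- cells, Cacnb3 only slightly so in the first series. Cacng3 differs more between the 2 series of KA EGFP- cells than between saline and KA.

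Per kilobase of exon, high members in saline EGFP- cells were Cacng3 (a mean of 36.3 CPM per kb), Scn3b (33.8), Cacnb3 (22.6) and Scn2a (12.7). They encode a transmembrane AMPA receptor regulatory protein, a sodium beta subunit, a calcium beta subunit and a sodium pore. Further pore genes near these levels were Cacna1e (11.3), Scn3a (11.2) and Scn8a (10.3). SDs of these genes were 3.25 to 3.95 on the log2 scale, so their order was not resolved beyond the spread between cells.

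Promoters are shown for 2 members whose levels lay on opposite sides in KA and saline EGFP- cells and whose window holds no annotated exon. Each is the 250 bases before a RefSeq transcription start, GRCm38.p6, + strand, 5′ to 3′, with GC boxes (GGGCGG on either strand) in capitals.
Cacna2d1, chr5:15934441-15934690, before the gene: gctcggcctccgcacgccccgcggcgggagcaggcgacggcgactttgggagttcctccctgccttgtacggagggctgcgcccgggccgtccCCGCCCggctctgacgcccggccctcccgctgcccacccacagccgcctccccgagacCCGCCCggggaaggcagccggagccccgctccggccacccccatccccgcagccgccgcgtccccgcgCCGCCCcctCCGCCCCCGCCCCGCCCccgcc
Cacnb3, chr15:98632078-98632327, an upstream start within the annotated gene: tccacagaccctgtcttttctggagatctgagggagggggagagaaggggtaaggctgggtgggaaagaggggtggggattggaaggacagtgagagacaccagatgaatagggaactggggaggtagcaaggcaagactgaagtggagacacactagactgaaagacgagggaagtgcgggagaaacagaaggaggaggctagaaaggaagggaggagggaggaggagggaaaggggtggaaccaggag
The Cacna2d1 window holds 6 GC boxes at 82.4% G and C, and this Cacnb3 window holds none at 56%. A second RefSeq start of Cacnb3 has 3 GC boxes in its window, so the contrast depends on which start is read. Of 41 windows of 30 members, 15 held a GC box, against 32.7% of all 32851 windows. The TATA box (TATAAA) was in 2 member windows (12.4% of all), the cAMP response element (TGACGTCA) in 0 (1.55%) and the half-site TTCAGCACC of the RE1 element in 0 (0.301%). These motifs were searched on both strands, a match is a description of the letters only, and the other 10 members, Scn3b, Scn3a and Cacna1a among them, had no window.

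In EGFP- cells, KA against saline with all titles, the sodium channel genes parted in opposite directions within both families. Scn3b and Scn3a were lower after KA, and Scn2b, Scn1a and Scn8a were higher. Of the calcium channel genes, the alpha2delta genes Cacna2d1 and Cacna2d3, the pore genes Cacna1a and Cacna1c, and Cacnb2 and Cacnb4 were higher, and Cacnb3 was lower. A difference is the KA mean minus the saline mean of log2(CPM+1), which understates the change of low genes, and a difference of 1 was used as the fold of interest. Within the second series, the only one with both treatments, Scn2b, Scn8a, Cacna2d3, Cacnb2 and Cacnb4 did not reach 1. Scn2b and Cacnb2 were lower after KA there, and the values are given below. In all, 11 of 28 members were at or above 1, where 25.4% of all genes were, and 3 were at or below -1, where 9.13% were. Their median difference was 0.83, against 0.37 for all genes. Among the 14 pore genes 4 were at or above 1 and 1 at or below -1 (median 0.82), and among the 14 auxiliary genes 7 and 2 (median 0.93). No difference reached the pooled SD over cells. Without the cells rich in microglia markers, 13 and 3 members were at or above 1 and at or below -1, where 31.8% and 8.55% of all genes were, with Scn3b at -3.10 and Scn3a at -2.14.

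Only the second series holds both treatments, with 15 KA and the same 27 saline EGFP- cells, so for the first series KA cannot be told apart from the series. Within the second series, 4 of 28 members were at or above 1, where 8.25% of all genes were, and 5 were at or below -1, where 28.7% were. The median member was 0.12 and the median gene -0.40. The KA cells of this series also had fewer genes with a count than the saline cells (medians above), and its part in the lower values was not tested. Pore genes were at or above 1 in 3 and at or below -1 in 2 of 14 cases, and auxiliary genes in 1 and 3 of 14. The largest ratio to the pooled SD over cells was that of Scn3b, at -0.84. With counts pooled over cells, so that cells with many reads and high levels weigh most, 13 members were at or above 1 in this series in place of 4, and 24.9% of all genes were, in place of 8.25%. Without the cells rich in microglia markers 7 were at or above 1 (12.7% of all genes) and 7 at or below -1 (29.6%), among the latter Scn3b (-3.90), Cacnb3 (-3.29) and Scn3a (-2.35). Since both comparisons use the same saline cells, their values stand side by side and their likeness is no separate support.

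**Figure D2:**
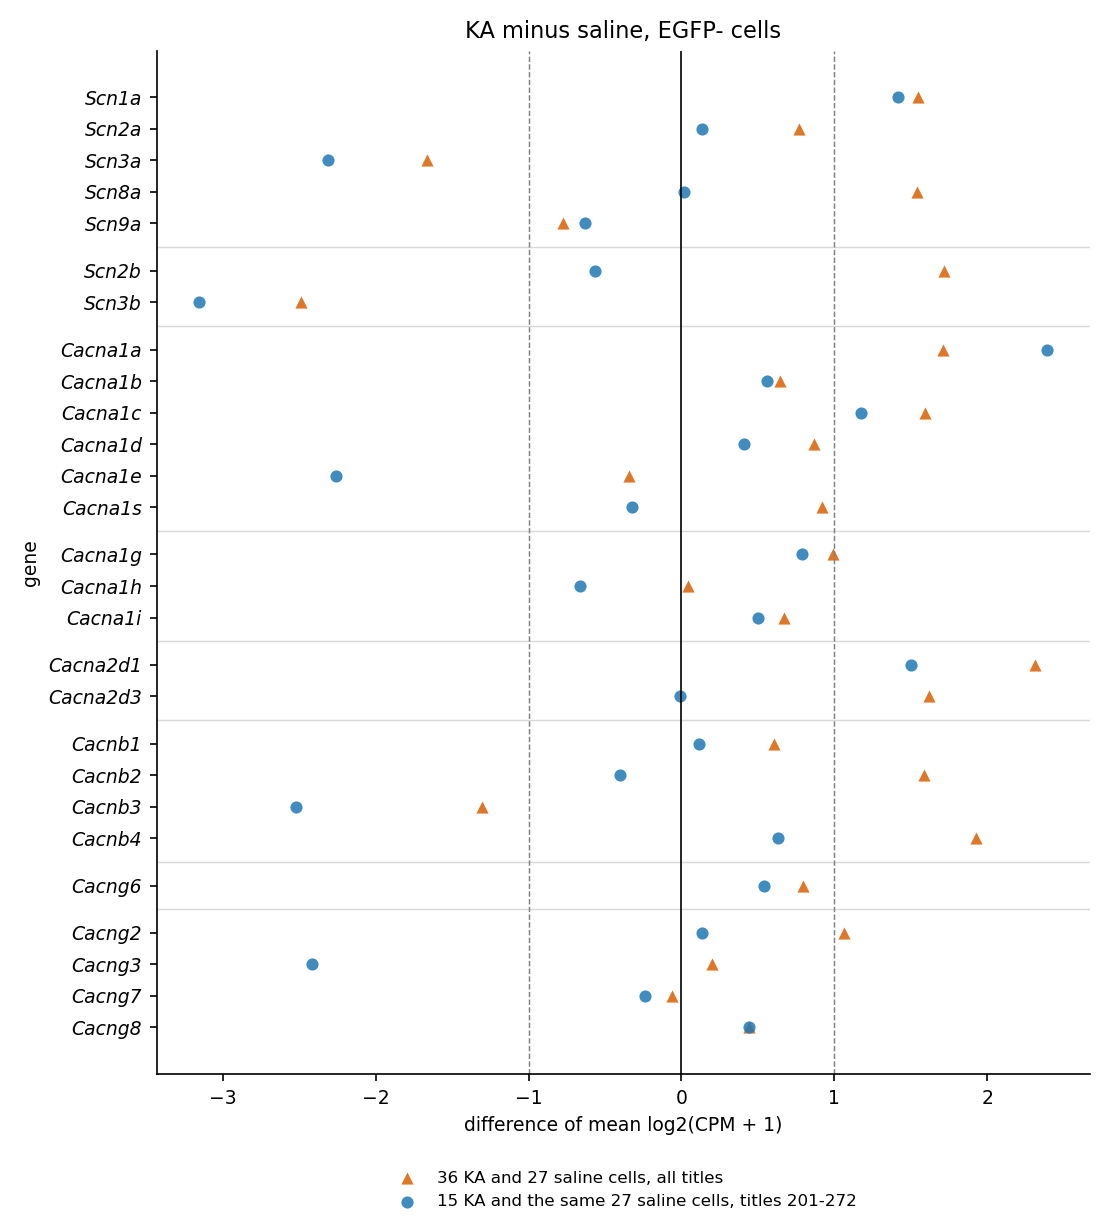
Difference of mean log2(CPM+1), KA minus saline, in EGFP- cells for 27 of the members compared (rows, by role), with all titles (triangles) and within the second series (circles), which share the 27 saline cells. Dashed lines mark a difference of 1 in either direction. Scn3b, Scn3a and Cacnb3 lie left of -1 and Scn1a, Cacna1a, Cacna1c and Cacna2d1 right of 1 with both sets of cells, whereas Scn8a, Cacna2d3 and Scn2b lie right of 1 only with all titles.

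Scn3b encodes a sodium beta subunit that binds the pore without a covalent bond. Its level was 0 to 898 CPM (median 134) for saline EGFP-, 0 to 515 (median 0) for KA EGFP- and 0 to 268.1 (median 0) for KA EGFP+ cells. The means were 4.85 ± 3.95 (SD, n = 27 cells), 2.37 ± 3.25 (n = 36) and 2.36 ± 3.11 (n = 27) on the log2(CPM+1) scale. The median KA cell of either class thus had no count, while the highest cell of each group lay above the saline median. Cells given here and below as a number out of a group are those with a count after thinning. For Scn3b, 19 of 27 saline EGFP- cells had a count (70.4%, Clopper-Pearson 95% interval 49.8 to 86.2%), against 14 of 36 KA EGFP- cells (38.9%, 23.1 to 56.5%) and 10 of 27 KA EGFP+ cells (37%). Within the second series the KA EGFP- cells had 3 of 15 (20%, 4.33 to 48.1%), with a mean of 1.70 ± 3.39. Such intervals of shares treat cells as independent draws, though no label ties a cell to a mouse. They are no test between groups. The difference was -2.49 with all titles and -3.16 within the second series, at percentiles 1.0 and 1.8 of all genes compared. Pooled over cells, its level was 201.6 CPM in saline EGFP- cells (exact Poisson 95% interval 199.1 to 204.2, counting error of reads only) and 31.2 CPM in KA EGFP- cells (30.5 to 31.8). These Poisson intervals are narrow because depth is high, and the spread between cells is far larger. They do not cover the capture of few molecules.

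Scn2b, whose protein is linked to the pore by a disulfide bond, followed the title series. Its level was 0 to 102 CPM (median 0.399, mean 1.59 ± 2.17, 13 of 27 cells) with saline, in the EGFP- class. With KA, in the same class, it was at 0 to 133 CPM (median 57.1, mean 4.95 ± 2.25, 19 of 21 cells) in the first series and at 0 to 35.7 (median 0, mean 1.03 ± 1.79, 4 of 15 cells) in the second. Its difference of 1.72 with all titles was -0.57 within the second series. Scn4b, another beta gene, was under the filter, with a highest level of 27.4 CPM in any cell.

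Of the sodium pore genes, Scn3a encodes Nav1.3, a form best known from developing and injured neurons. Its level was 0 to 576 CPM (median 102) for saline EGFP-, 0 to 727 (median 4.56) for KA EGFP- and 0 to 631 (median 0.429) for KA EGFP+ cells. The means were 5.00 ± 3.49, 3.33 ± 3.29 and 2.56 ± 3.20, and 22 of 27, 25 of 36 and 13 of 27 cells had a count after thinning. The median cell was lower after KA, while the highest cells of the 3 groups reached similar levels. The KA minus saline difference in EGFP- cells was -1.67, and -2.31 within the second series, where 8 of 15 KA cells had a count.

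Scn8a encodes Nav1.6, the form concentrated at the axon initial segment of mature neurons. Saline EGFP- cells had 0 to 1338 CPM (median 40.9, mean 4.91 ± 3.26, 21 of 27 cells). In KA EGFP- cells of the first series it was at 28.6 to 958 CPM (median 154, mean 7.54 ± 1.40), with a count in 21 of 21 cells. In those of the second series it was at 0 to 2976 CPM (median 26.9, mean 4.92 ± 4.77), with a count in 8 of 15 cells. The difference of 1.54 with all titles thus became 0.01 within the second series, where the cells lay at both extremes.

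Scn1a encodes Nav1.1, a form best known from interneurons. Its level was 0 to 505 CPM (median 0.351, mean 2.16 ± 2.85, 14 of 27 cells) for saline EGFP-, 0 to 777 (median 9.53, mean 3.71 ± 3.32, 24 of 36 cells) for KA EGFP- and 0 to 377 (median 62.5, mean 4.62 ± 3.19, 20 of 27 cells) for KA EGFP+ cells. The KA minus saline difference in EGFP- cells was 1.55, and 1.41 within the second series (0 to 777 CPM, median 8.32, 9 of 15 cells). The 9 interneuron markers summed to 0 to 2799 CPM (median 228.4) in saline EGFP- cells and 0 to 4306 (median 761) in KA EGFP- cells, with Slc32a1, Sst, Vip and Dlx1 at 0 in all of the latter. Of these markers, Gad1 had a count after thinning in 24 of 27 saline and 32 of 36 KA EGFP- cells (log2 means 6.87 and 8.46). Gad2 had one in 3 of 27 and 14 of 36 (0.39 and 2.88). The part of the interneuron markers in the Scn1a values was not tested.

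Scn2a, which encodes Nav1.2, differed by less than 1 in both sets of cells. The level ran from 0 to 824 CPM (median 93.0, mean 4.87 ± 3.63, 20 of 27 cells) in saline EGFP- cells and from 0 to 1435 (median 136, mean 5.64 ± 3.59, 27 of 36 cells) in KA EGFP- cells. The difference was 0.77, and 0.14 within the second series. Scn2a made up 32.4% of the pore level per kb in saline EGFP- and 32.3% in KA EGFP- cells, while Scn3a made up 28.7% and 10.3% and Scn8a 26.5% and 41.7%. These shares come from mean CPM, in which the highest cells weigh most, and do not describe the typical cell. Scn3a was the highest pore gene per kb in 9 of 27 saline EGFP- cells and in 1 of 36 KA EGFP- cells.

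**Figure D3:**
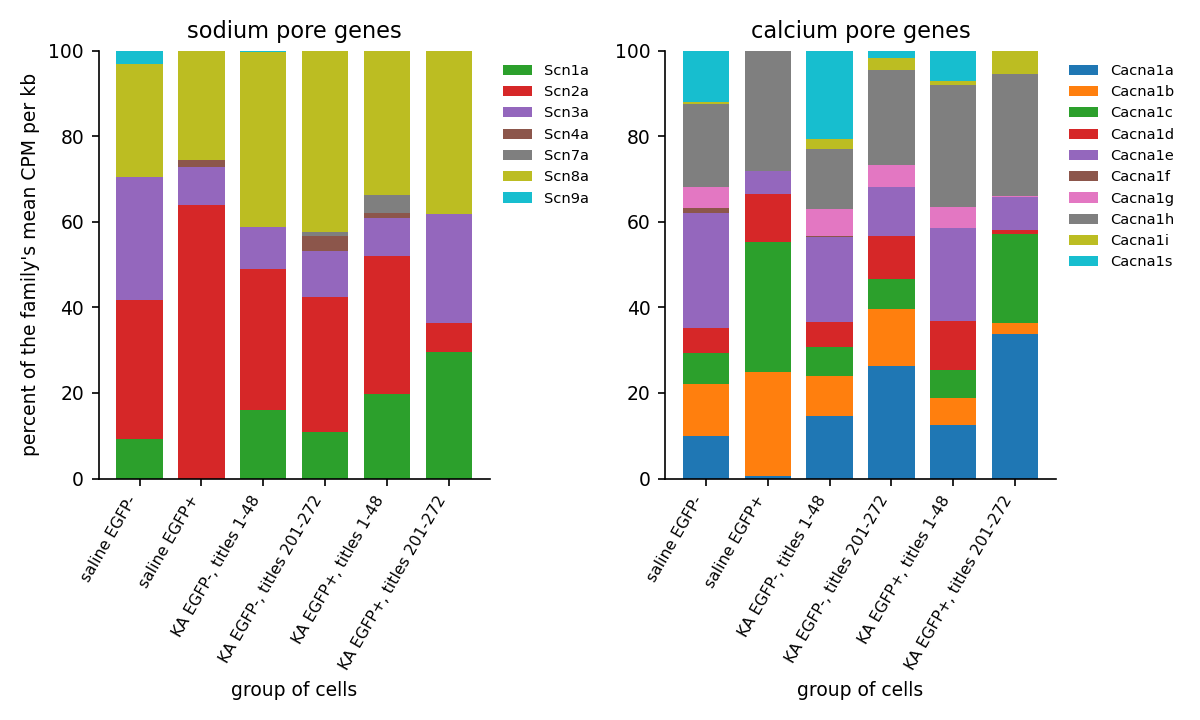
Makeup of 2 families by group: each bar splits the summed mean CPM per kb of the sodium pore or calcium pore genes into percent per gene. Genes under 1% in every column are not drawn. Scn3a takes 28.7% of the sodium pore bar in saline EGFP- cells and 10.6% in KA EGFP- cells of the second series, while Scn8a takes 26.5% and 42.2%. The highest cells weigh most in mean CPM, and the mean log2(CPM+1) of Scn8a hardly differed between these groups.

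Further sodium pore genes were low. Scn9a, best known from sensory neurons, reached 225.9 CPM in a saline EGFP- cell and no more than 5.19 CPM in any KA cell, with a count after thinning in 4 of 27 saline EGFP- and 5 of 36 KA EGFP- cells. Scn4a, Scn7a, Scn10a and Scn11a, which are forms of muscle, glia and sensory neurons, were under the filter. Scn4a reached 293 CPM in 1 KA EGFP- cell and Scn7a 255.5 CPM in 1 KA EGFP+ cell.

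**Figure D4:**
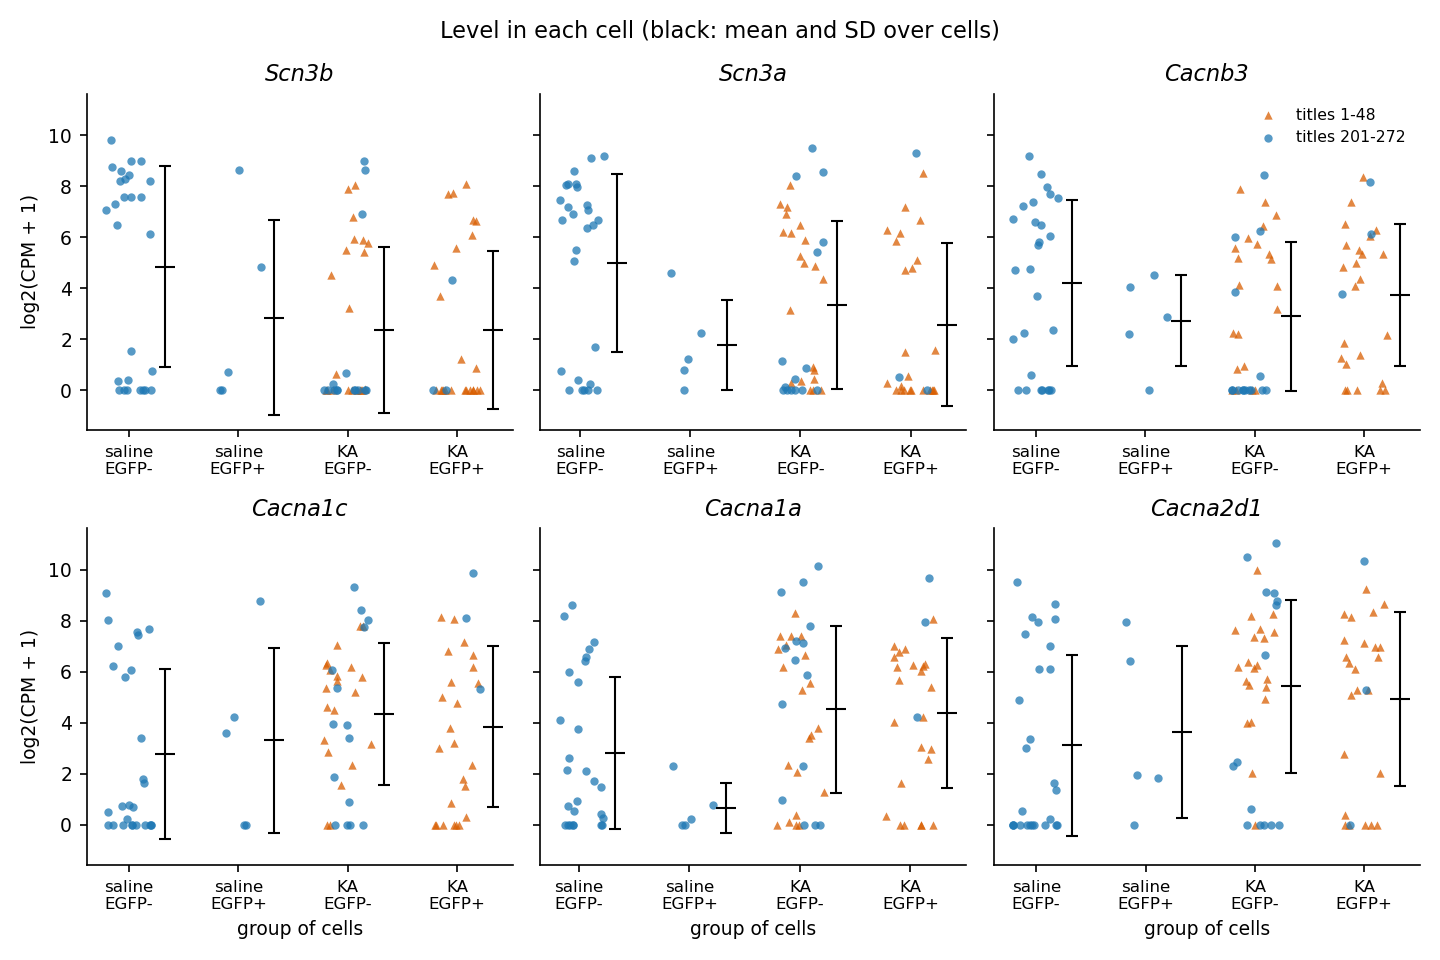
Level of 6 members in each cell as log2(CPM+1) by group, with triangles for the first and circles for the second series of titles, and the mean and SD over cells in black. In the upper row (Scn3b, Scn3a, Cacnb3) a larger share of KA EGFP- than of saline EGFP- cells lies at or near 0, and in the lower row (Cacna1c, Cacna1a, Cacna2d1) a smaller share does.

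Among high-voltage-activated calcium pores, Cacna1a encodes the P/Q-type channel of presynaptic terminals. It was at 0 to 398 CPM (median 2.27, mean 2.83 ± 2.98, 17 of 27 cells) in saline EGFP- cells and at 0 to 1141 (median 41.8, mean 4.54 ± 3.28, 28 of 36 cells) in KA EGFP- cells. The difference was 1.71, and 2.39 within the second series (0 to 1141 CPM, median 88.3, mean 5.22 ± 3.65, 11 of 15 cells), at percentile 99.2 of all genes. Cacna1a was the member with the largest positive difference within that series. Its share of the calcium pore level per kb, by mean CPM, in which the highest cells weigh most, was 9.9% in saline EGFP- and 21.2% in KA EGFP- cells.

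Cacna1c encodes the L-type channel Cav1.2, which couples activity to gene expression. It was at 0 to 545 CPM (median 0.68, mean 2.77 ± 3.34, 14 of 27 cells) in saline EGFP- cells and at 0 to 651 (median 29.9, mean 4.36 ± 2.80, 29 of 36 cells) in KA EGFP- cells. The difference was 1.59, and 1.17 within the second series (0 to 651 CPM, median 14.1, mean 3.94 ± 3.42, 10 of 15 cells).

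Cacna1e, the R-type channel, was past a difference of 1 within the second series and not with all titles. Saline EGFP- cells had 0 to 1026 CPM (median 153, mean 5.78 ± 3.68, 22 of 27 cells). In KA EGFP- cells it was at 0.664 to 584 CPM (median 140, mean 6.80 ± 2.06, 21 of 21 cells) in the first series and at 0 to 1245 (median 1.65, mean 3.52 ± 4.22, 8 of 15 cells) in the second. The difference was -0.34 with all titles and -2.26 within the second series, where the mean level per kb was 11.3 CPM in saline and 8.23 CPM in KA cells. The lower log2 mean thus came with fewer KA cells that had a count.

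The other high-voltage pores differed by less than 1. Cacna1b, the N-type channel of terminals, differed by 0.65 and within the second series by 0.56, and Cacna1d, the L-type channel Cav1.3, by 0.87 and 0.41. Cacna1s, the skeletal muscle form, was counted in 3 of 27 saline EGFP- and 9 of 36 KA EGFP- cells, and 19.98% of its exon bases overlap an antisense gene whose reads cannot be told apart without strand. Cacna1f, the retinal form, was under the filter. Of the T-type genes, which open at low voltage and drive burst firing, Cacna1h was at 0 to 457 CPM (median 0.428) in saline EGFP- and at 0 to 1995 (median 2.86) in KA EGFP- cells, a difference of 0.04. Cacna1g and Cacna1i had medians of 0 in both groups and differences of 0.99 and 0.67.

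The alpha2delta subunits raise the number of calcium channels at the membrane, and those of Cacna2d1 and Cacna2d2 bind gabapentin. Cacna2d1 was at 0 to 731 CPM (median 1.56, mean 3.12 ± 3.55, 15 of 27 cells) in saline EGFP- cells and at 0 to 2107 (median 71.7, mean 5.43 ± 3.39, 29 of 36 cells) in KA EGFP- cells. Its difference was 2.31, and 1.5 within the second series (0 to 2107 CPM, median 4.58, mean 4.62 ± 4.52, 9 of 15 cells), at percentiles 96.2 and 96.5. It was thus the member with the largest positive difference when all titles were used.

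Cacna2d3 was at 0 to 605 CPM (median 0.32, mean 2.91 ± 3.53, 12 of 27 cells) in saline EGFP- cells and at 0 to 2505 (median 50.7, mean 4.53 ± 3.29, 27 of 36 cells) in KA EGFP- cells. Its difference of 1.62 became -0.01 within the second series (median 0.51 CPM, mean 2.90 ± 3.62, 8 of 15 cells). Cacna2d2 and Cacna2d4 were under the filter, with at most 22.9 and 37.6 CPM in any cell.

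Calcium beta subunits bind the pore inside the cell and carry it to the membrane. Cacnb3 was at 0 to 589 CPM (median 25.7, mean 4.20 ± 3.25, 19 of 27 cells) in saline EGFP- cells and at 0 to 345 (median 3.70, mean 2.90 ± 2.94, 22 of 36 cells) in KA EGFP- cells. Its difference was -1.30, and -2.52 within the second series (median 0 CPM, mean 1.67 ± 2.92, 5 of 15 cells). The KA cells of the first series lay closer to the saline cells, at 0 to 236.7 CPM (median 16.3, mean 3.77 ± 2.68).

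Cacnb4 was at 0 to 192 CPM (median 0, mean 2.38 ± 2.99, 12 of 27 cells) in saline EGFP- cells and at 0 to 622 (median 59.9, mean 4.31 ± 3.54, 25 of 36 cells) in KA EGFP- cells, a difference of 1.93 that was 0.63 within the second series. Cacnb2 was at 0 to 482 CPM (median 0, mean 1.95 ± 3.19, 9 of 27 cells) and at 0 to 331 (median 17.8, mean 3.54 ± 3.42, 21 of 36 cells), a difference of 1.59 that was -0.40 within the second series. Cacnb1 differed by 0.61 and 0.11. Cacnb3 was the highest beta gene per kb in 12 of 27 saline EGFP- and 9 of 36 KA EGFP- cells, and Cacnb4 in 2 and 13. Of the Cacnb4 exon bases, 15.99% overlap another gene, whose reads cannot be told apart without strand.

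Cacng3 and Cacng2, which bring AMPA receptors to synapses, lead the last group. Cacng3 was at 0 to 510 CPM (median 11.4, mean 3.79 ± 3.62, 16 of 27 cells) with saline, in the EGFP- class. With KA it was at 0 to 411 CPM (median 92.3, mean 5.86 ± 2.65, 18 of 21 cells) in the first series and at 0 to 817 (median 0, mean 1.38 ± 2.97, 3 of 15 cells) in the second. The saline cells thus lay between the 2 series of KA cells, and the difference was 0.20 with all titles and -2.42 within the second series. Cacng2 was at 0 to 92.2 CPM (median 0, mean 0.96 ± 1.56) in saline EGFP- and at 0 to 210 (median 1.00, mean 2.02 ± 2.43) in KA EGFP- cells, a difference of 1.06 that was 0.13 within the second series. Cacng7 and Cacng8 differed by less than 1, and Cacng4 and Cacng5 were under the filter.

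The gamma gene Cacng6 was at 0 in all saline cells. It was counted after thinning in 5 of 36 KA EGFP- and 6 of 27 KA EGFP+ cells and reached 271.4 CPM. A count of 0 in 27 saline EGFP- cells allows a share of up to 11.1% (3 divided by the number of cells, a rough limit and not a Clopper-Pearson one). Pooled, the KA EGFP- level was 8.39 CPM, which comes from few cells, so no fold is given. Cacng1, the skeletal muscle gamma gene, reached 0.697 CPM in 1 saline EGFP- cell and was at 0 in all others.

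Within the second series, cells of both treatments come in runs of neighbouring titles, a split that was made after the data were seen. There were 3 runs of saline EGFP- cells (6, 6 and 15 cells) and 3 of KA EGFP- cells (8, 2 and 5 cells). Scn3b had run means of 3.45 to 8.0 in saline and 0 to 2.06 in KA, Scn3a 4.29 to 6.825 and 0.29 to 3.45, and Cacnb3 3.88 to 4.34 and 0 to 2.46. The KA runs lay below all saline runs for these 3 genes and for Cacng7, whose levels were near 0, and the other 24 members overlapped. How many of all genes are ordered so was not counted, while 28.7% of all genes were at or below -1 in this series. A KA run of 2 cells also weighs in, so the order is a description only. Treatment and run cannot be told apart, since no run holds both.

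Among KA cells, EGFP+ against EGFP-, few members differed by 1 or more. With all titles, 2 of 28 members were at or above 1, where 14.4% of all genes were, and 0 were at or below -1, where 3.55% were. The median member was -0.04 and the median gene 0.24. No member reached the pooled SD over cells. This comparison mixes series, since 24 of 27 EGFP+ but 21 of 36 EGFP- cells were of the first.

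The 2 members were Scn2b and the T-type pore gene Cacna1h. Scn2b was at 0 to 370 CPM (median 45.4, mean 4.97 ± 2.22, 25 of 27 cells) in EGFP+ cells and at 0 to 133 (median 15.2, mean 3.31 ± 2.83, 23 of 36 cells) in EGFP- cells, a difference of 1.65. Cacna1h was at 0 to 697 CPM (median 39.1, mean 4.46 ± 3.34, 19 of 27 cells) and at 0 to 1995 (median 2.86, mean 3.02 ± 3.17, 21 of 36 cells), a difference of 1.44. Within the first series they were 0.37 and 0.83. For titles M20 to M48 they were 0.61 and 1.71, and within the second series, with 3 EGFP+ and 15 EGFP- cells, 1.15 and 3.01. Whether these genes pass 1 thus depended on the titles used. Without the cells rich in microglia markers Scn2b was at 1.12 and Cacna1h at 1.12, and 4 and 5 members were at or above 1 and at or below -1, where 14.3% and 7.60% of all genes were.

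Within the first series, 24 EGFP+ and 21 EGFP- cells, 0 of 28 members were at or above 1, where 6.34% of all genes were, and 8 were at or below -1, where 18.1% were. The median member was -0.33 and the median gene -0.23. All 19 cells of M1 to M19 are EGFP+, so there class and titles cannot be told apart, and both classes occur only from M20 to M48 (5 EGFP+ and 21 EGFP- cells). Among those, 5 members were at or above 1, where 15.4% of all genes were, namely Cacnb3 (1.77), Cacna1h (1.71), Cacna1a (1.63), Cacnb4 (1.15) and Cacng2 (1.02). A further 10 were at or below -1, where 27.2% were, and Cacna1s was at -0.45. With all titles of the first series, the 8 were Cacng3 (-2.29), Cacna1e (-1.77), Cacna1s (-1.49), Scn8a (-1.46), Cacnb2 (-1.37), Scn3a (-1.32), Cacna1c (-1.29) and Cacna2d1 (-1.12). Of these, 5 are among the 14 pore genes and 3 among the 14 auxiliary genes.

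For several of the 8, fewer EGFP+ cells had a count. Cacng3 was at 0 to 625 CPM (median 12.5, mean 3.57 ± 3.61, 13 of 24 cells) in EGFP+ cells, against 18 of 21 EGFP- cells with a mean of 5.86 ± 2.65. Cacna1e was at 0 to 1226 CPM (median 77.7, mean 5.03 ± 3.80, 17 of 24 cells), against 21 of 21 EGFP- cells with a mean of 6.80 ± 2.06. Scn8a was at 0 to 594 CPM (median 148, mean 6.07 ± 2.94, 21 of 24 cells), against 21 of 21 with a mean of 7.54 ± 1.40. The highest EGFP+ cell lay above the highest EGFP- cell for Cacng3 and Cacna1e and below it for Scn8a, and for all 3 the lower mean came with more cells that had no count.

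Among the other 5, Scn3a was at 0 to 365 CPM (median 0.337, mean 2.47 ± 3.02, 12 of 24 cells) against 0 to 267.3 (median 28.1, mean 3.80 ± 2.97, 17 of 21 cells). Cacnb2 was at 0 to 294 CPM (median 21.6, mean 3.59 ± 3.10, 15 of 24 cells) against 0 to 331 (median 79.8, mean 4.96 ± 3.05, 17 of 21 cells). Cacna1c was at 0 to 280 CPM (median 7.61, mean 3.37 ± 2.91, 17 of 24 cells) against 0 to 221.3 (median 39.8, mean 4.66 ± 2.30, 19 of 21 cells). In each of these the ranges overlapped and the median EGFP+ cell was the lower.
Cacna2d1 was at 0 to 616 CPM (median 75.2, mean 4.90 ± 3.29, 18 of 24 cells) against 0 to 1025 (median 73.0, mean 6.01 ± 2.23, 20 of 21 cells), so here the medians were close. Cacna1s had a count in 5 of 24 cells (mean 1.09 ± 2.41) against 8 of 21 (mean 2.59 ± 3.44). In this series 10 EGFP+ and 0 EGFP- cells had 0.1% or more of the counts in microglia markers. Without those 10 cells, 8 members were at or below -1 (17.4% of all genes), with Scn8a at -2.21, Cacna1e at -2.45 and Cacng3 at -1.36. With counts pooled over cells Cacng3 (0.12), Cacna1e (0.27) and Scn3a (0.041) were on the other side of 0.

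**Figure D5:**
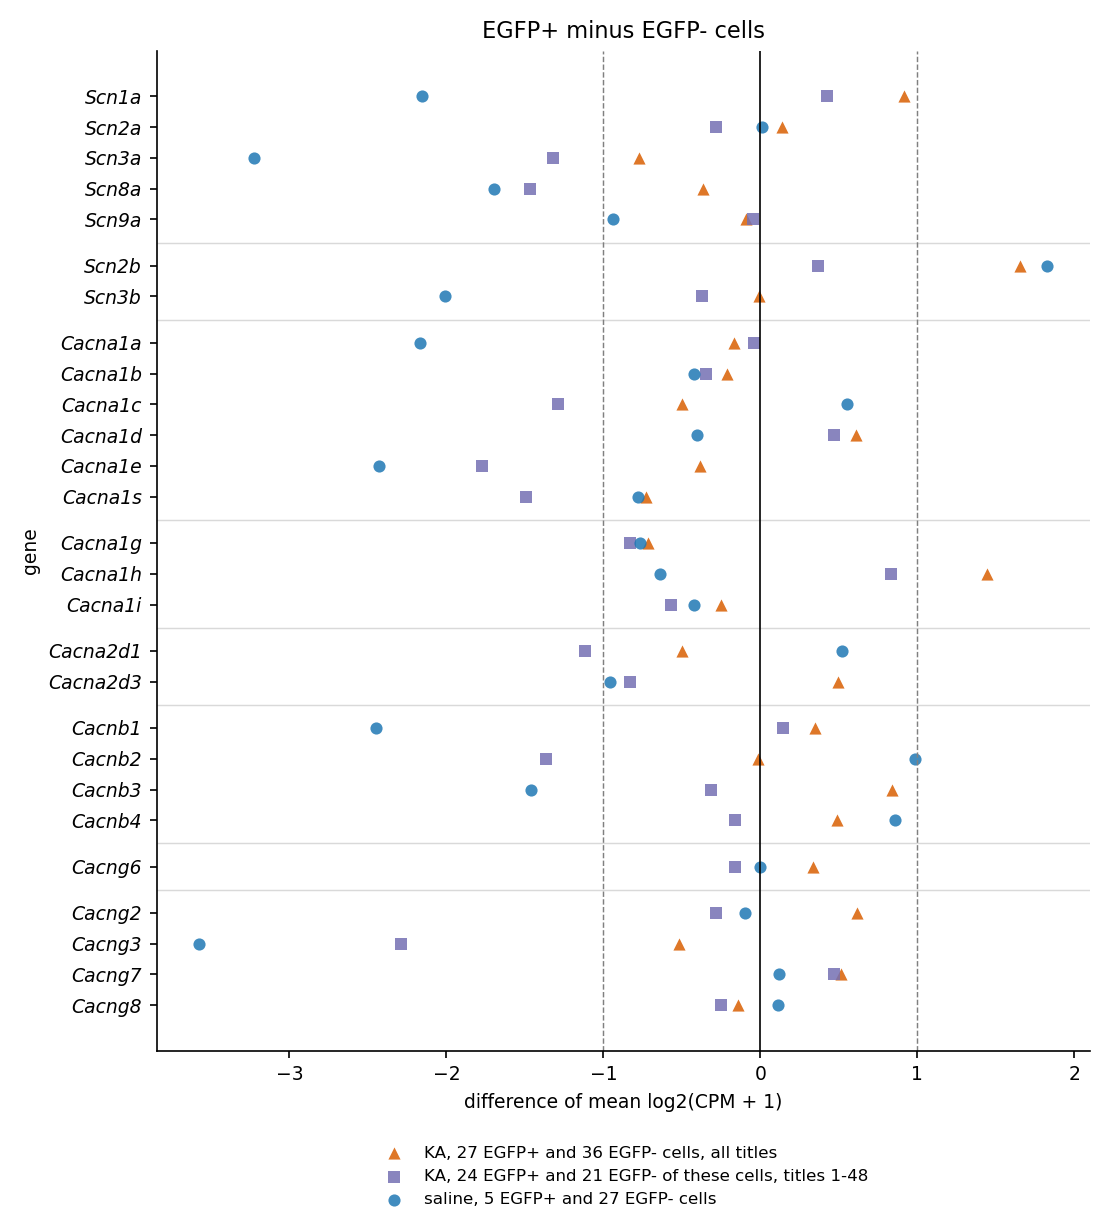
Difference of mean log2(CPM+1), EGFP+ minus EGFP-, for 27 of the members compared (rows, by role): KA cells of all titles (triangles), KA cells of the first series (squares, part of the same cells) and saline cells (circles, 5 EGFP+ cells). Dashed lines mark 1 in either direction. Most KA values lie between the lines, Scn2b is right of 1 for all KA titles and for saline, and 9 members lie left of -1 in saline.

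In saline cells the EGFP+ class holds only 5 cells, and only 3 of them are labelled as passed. These labels look shifted by 1 title, as described with the processing, so they may not tell the quality of these cells. With all 5, 1 of 28 members was at or above 1 (11.9% of all genes) and 9 were at or below -1 (33.1%). The median member was -0.57 and the median gene -0.49. Of the 9, 5 were pore genes and 4 auxiliary genes, and the ratio to the pooled SD was largest for Cacng3, at -1.06. In 4 of these 5 cells the microglia markers took 0.1% or more of the counts, against 9 of 27 EGFP- cells, and the summed markers were 11.6 to 44508 CPM in the former and 0 to 47655 in the latter. Without such cells only 1 EGFP+ cell remained, and Scn3b (3.12) and Scn8a (0.39) were then higher in it.

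In title order, Cacng3 was at 0, 1.11, 0, 0 and 0 CPM in the 5 cells, a difference of -3.58 from the EGFP- cells. Scn3a was at 3.77, 0, 1.32, 0.725 and 23.5 CPM, a difference of -3.23, and Cacna1e at 7.22, 4.82, 66.9, 0.725 and 18.8 CPM, a difference of -2.43. All 5 cells lay below the EGFP- medians of these 3 genes, 11.4, 102 and 153 CPM. Cacna1a was at 0.164, 0, 0, 0.725 and 3.91 CPM (difference -2.17), and Scn8a at 38.6, 0, 1.77, 55.1 and 10.2 CPM (difference -1.70). Scn3b was at 0.656, 0, 27.8, 400 and 0 CPM (difference -2.01), and Cacnb3 at 15.8, 22.2, 0, 3.63 and 6.26 CPM (difference -1.46). For Scn3b 1 cell lay above the EGFP- median of 134 CPM, so these cells lay on both sides of it.

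Scn1a and Cacnb1 were at 0 in all 5 cells, which allows a share of up to 60% (3 divided by the number of cells, a rough limit for so few). Pooled, saline EGFP- cells were at 30.2 CPM for Scn1a and 48.1 CPM for Cacnb1. The fitted differences of these genes, -2.16 and -2.45, depend on the pseudocount and are no bounds, and with 5 cells no fold is given. The member at or above 1 was Scn2b, at 0.656, 3.71, 330, 5.80 and 7.04 CPM (mean 3.42 ± 2.91), against 1.59 ± 2.17 in EGFP- cells, a difference of 1.83. Without the cell at 330 CPM, no member reached 1.

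KA against saline in EGFP+ cells rests on the same 5 saline cells. In all, 17 of 28 members were at or above 1, where 53% of all genes were, and 0 were at or below -1, where 9.23% were. The median member was 1.21 and the median gene 1.10. With genes at 0 in a group set at 3 counts over that group, a step that covers counting error only, 15 members were at or above 1 and the median was 1.15. Before that step the counts were 7 of 14 for pore genes and 10 of 14 for auxiliary genes. Without the cells rich in microglia markers, which leaves 1 saline cell, Cacna2d3 (-3.13) and Scn8a (-0.34) were lower in the KA cells.

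The largest differences, all higher in the KA cells, included those of Scn1a (4.62), Cacna1a (3.72), Cacnb1 (3.41), Cacng3 (3.26), Cacna2d3 (3.07), Scn8a (2.87), Cacna1h (2.13), Cacna1d (1.89) and Cacng2 (1.78). Pooled over the KA EGFP+ cells, Scn1a was at 92.0 CPM and Cacnb1 at 46.2 CPM. Both were at 0 in the 5 saline cells, so no fold is given.

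For the others of these the KA cells covered the saline values. Cacna1a was at 0 to 820 CPM (median 41.3, mean 4.38 ± 2.94) in 27 KA EGFP+ cells against at most 3.91 in saline, and 22 of 27 had a count after thinning. Cacng3 was at 0 to 625 CPM (median 8.30, mean 3.47 ± 3.65, 14 of 27 cells) and Scn8a at 0 to 642 (median 149, mean 6.08 ± 3.13, 23 of 27 cells). Cacna2d3 was at 0 to 420 CPM (median 60.1, mean 5.02 ± 2.94, 21 of 27 cells), against 0, 0, 0, 334 and 1.56 in saline. A single saline cell thus reached the KA level of Cacna2d3, and none reached the KA median of Cacna1a, Cacng3 or Scn8a.
Cacna1h was at 0.164, 0.371, 194, 2.18 and 2.35 CPM and Cacna1d at 0, 0, 101, 0.725 and 0 CPM in the saline cells, and in KA cells Cacna1d was at 0 to 180 CPM (median 15.3, mean 3.38 ± 3.06, 17 of 27 cells). The cell with high Cacna1h and Cacna1d was the same as that with high Scn2b. Cacng2 was at 0 to 128 CPM (median 6.0, mean 2.64 ± 2.25, 19 of 27 cells) in KA cells and at most 5.80 CPM in saline cells.

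Only 3 KA EGFP+ cells were of the second series. Scn1a was at 202.9, 208.8 and 243.1 CPM in them, Cacna1a at 17.6, 247.3 and 820 and Cacna1c at 39.0, 278 and 933. For Scn1a, Cacna1a and Cacng2 all 3 lay above the highest saline EGFP+ cell, at 0, 3.91 and 5.80 CPM. The lowest of the 3 was at 7.37 CPM for Cacng2. How many of all genes are separated so was not counted. With these 3 KA cells, 33.3% of all genes were at or above 1 and 24.8% at or below -1. Not every member was higher in these KA cells. The difference from the saline EGFP+ cells was -1.40 for Scn3b, -1.25 for Scn2b and -0.70 for Cacnb4, and that of Cacna1d, 1.89 with all titles, was 0.42.

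Between the 2 series of KA EGFP- cells, treatment and class being the same, 16 of 28 members were at or above 1 in the first series (60.9% of all genes) and 1 at or below -1 (2.29%). The median member was 1.13 and the median gene 1.36. Auxiliary genes were at or above 1 in 10 and pore genes in 6 of 14 cases each. The largest differences included those of Cacng3 (4.48), Scn2b (3.92), Cacnb2 (3.41), Cacna1e (3.28), Cacna2d3 (2.78), Scn8a (2.61), Cacnb4 (2.23), Cacna1s (2.13) and Cacnb3 (2.09). Relative to the spread, Scn2b was farthest apart, at 1.89 SD, and 5 members passed 1 SD. With counts pooled over cells, where the cell of 56183007 counts weighs most, the median member was at -0.64.

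Several of these genes were counted in few cells of the second series. Cacnb2 was at 0 to 331 CPM (median 79.8, 17 of 21 cells) in the first and 0 to 269.4 (median 0, mean 1.55 ± 2.96, 4 of 15 cells) in the second. Cacna2d3 was at 0 to 639 CPM (median 66.8, mean 5.69 ± 2.53, 19 of 21 cells) in the first, against 8 of 15 cells. Cacnb4 was at 0 to 622 CPM (median 88.9, mean 5.24 ± 3.13, 18 of 21 cells) in the first and 0 to 413 (median 0, mean 3.01 ± 3.78, 7 of 15 cells) in the second. For these 3 genes at least 17 of 21 cells of the first series and at most 8 of 15 of the second had a count, and the ranges overlapped.
Cacna1a was the only member at or below -1, at -1.17. It was at 0 to 315 CPM (median 12.9, mean 4.05 ± 2.98, 17 of 21 cells) in the first series, under the second.

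Genes whose products act with these channels were taken from lists by role. Of 11 sodium channel partners and axon initial segment genes, 2 were at or above 1 and 1 at or below -1 for KA against saline in EGFP- cells, and 1 and 3 within the second series. Of all genes, 25.4% and 9.13% were so with all titles and 8.25% and 28.7% within the second series. Of 15 calcium channel partners compared, 8 and 1, and then 4 and 3, were so. Of 4 genes of the NALCN sodium leak channel complex, 0 passed either way with all titles and 3 were at or below -1 within the second series.

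Tspoap1, which ties calcium channels to release sites, was at 0 to 398 CPM (median 6.58, mean 3.49 ± 3.21) in saline EGFP- and at 0 to 2190 (median 134, mean 6.36 ± 2.93) in KA EGFP- cells. Its difference was 2.87, and 2.73 within the second series. Fgf13, whose protein binds the tail of sodium channel pores, was at 0 to 1503 CPM (median 128, mean 5.71 ± 3.89) in saline EGFP- cells and had a median of 0.0651 CPM and a mean of 3.49 ± 4.13 in KA EGFP- cells, a difference of -2.21 that was -4.39 within the second series. It thus lay on the side of Scn3b and Scn3a, though in KA cells of the first series its median was 154 CPM. Rimbp2, another release site gene, differed by 2.55, Cabp1, a calcium sensor, by 2.41, and Nfasc, an adhesion protein of the initial segment, by 2.22. Within the second series Erc2 (-2.64) and Fam155a (-2.08), a subunit of the NALCN complex, were the other large differences.

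Of the same partners in KA cells, EGFP+ against EGFP-, Cabp1 (-1.28), Fam155a (1.21), Erc2 (1.16) and Tspoap1 (-1.12) had the largest differences. Within the first series these were Cabp1 (-2.08), the ubiquitin ligase gene Nedd4l (-1.97), Stac2 (-1.95) and Rem2 (-1.35). In saline cells they were Nrcam (-3.66), Nedd4 (-3.12), Gem (2.41) and Rims1 (-2.32), and for KA against saline in EGFP+ cells Nedd4 (4.74), Rimbp2 (4.41), Nrcam (3.48) and Rims1 (3.16). Between the series of KA EGFP- cells they were Fgf13 (3.73), Nedd4l (2.69), Fam155a (2.68) and Stac2 (2.65).

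Over 378 pairs of the 28 members and 95 cells, the median Spearman's rho was 0.153, and the highest was that of Cacna1e with Scn8a, 0.524. These pairs share library, depth and group, and weak values in sparse counts are no finding.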

How the data were processed

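Per the labels' protocols, the cytosol of single granule cells was taken by patch pipette and libraries were made with Nextera XT. The submitters' processing notes name GRCm38 and the tools STAR, kallisto, featureCounts and Trimmomatic, and versions and roles are not given in the sources used here. The authors deposited whole-number read counts per gene symbol and a normalized signal of the same cells, used here only as an alternative scaling. Cells were those of the authors' quality-controlled count table (95 of 115 labelled cells), grouped by the labelled treatment and EGFP class. Of the 95, 13 are labelled as failed, and of the 20 others 12 as passed. Each of those 20 follows a title labelled as failed, whereas 0 of the 95 do. Whether the treatment and EGFP labels carry the same shift of 1 title was not tested. The study states 57 saline EGFP- cells where 27 were at hand. Spike-in rows (92, with 6 counts in all) were left out.

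Each count was scaled to a total of 1000000 per cell (CPM), with a pseudocount of 1 for log2 values. Depth is 1277978 counts or more per cell, so the counting error of reads is small beside the spread between cells. Error from the capture of few molecules is not covered by it and is part of that spread. Reads carry no molecular identifiers, and shares of cells (Clopper-Pearson 95% intervals after thinning to 1000000 counts) treat cells as independent draws. Lengths and overlaps are from GENCODE vM21. Values were computed with Python 3.11.15, numpy 2.4.6, pandas 2.3.3 and scipy 1.17.1, and TMM factors with edgeR 4.0.16, and the calculation was tested on simulated data. Since each deposited sample is 1 cell and no mouse is named, no test was run.

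Named are, per comparison, up to 10 members with the largest difference of at least 1 and the 5 highest per kb in saline EGFP- cells, with up to 4 partners per comparison. Alternatives changed the pseudocount, scaling, thinning, pooling, filter, cell selection and titles. The members and lists were chosen with earlier results of these data known. Some members are not reported here by name, though counts and medians over the members include them.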

Additional observations from a re-analysis of the deposited data

Results flagged for a closer look

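Among the 5 saline EGFP+ cells, 12 genes were checked for a cell far from the others, and 4 had one. Chance gives about 1 in 20 in groups without ties, but the genes share the same 5 cells and 4 of the Cacng3 values are tied at 0, so the number is not set against chance. On the log2(CPM+1) scale the cell farthest from the others was at 6.68 for Cacna1d, 7.60 for Cacna1h, 8.39 for Cacna2d3 and 1.08 for Cacng3. The Cacna1d and Cacna1h values belong to 1 cell, the Cacna2d3 value to the cell with the highest Scn3b, and the Cacng3 value is only 1.11 CPM. Of the cells absent from the quality-controlled table, 2 are labelled KA EGFP+, with a summed channel level of 1446 and 6568 CPM. Their median of 4007 CPM lay above the median of 1509 CPM in the saline EGFP- cells used, and the first of them lay below it. The KA EGFP+ cells used were at 576 to 4658 CPM (median 1953).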

How the results depend on the processing

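Of 584 single-gene values under other settings, 569 kept their direction and moved by less than the SD over cells, 5 moved by more and 10 turned. That SD is wide beside the differences, so a value could lose nearly all its size and still be among the 569. For KA against saline in EGFP- cells of the second series, Cacna1e went from -2.26 to as little as -0.02. The 569 are thus no measure of stability. Pooling counts, where deep cells weigh most, turned Cacng3 (0.12), Cacna1e (0.27) and Scn3a (0.041) for EGFP+ against EGFP- KA cells of the first series. It also turned, between the series, the median of all members (-0.64) and Cacna1e (-0.76), Cacna2d3 (-0.28) and Scn8a (-0.78). Without cells rich in microglia markers, which leaves 1 saline EGFP+ cell, Scn3b (3.12) and Scn8a (0.39) turned for EGFP+ against EGFP- saline cells, and Cacna2d3 (-3.13) and Scn8a (-0.34) for KA against saline EGFP+ cells. The cause was not tested. The other medians kept within 0.32 to 1.29 (KA against saline, EGFP-), -0.14 to 0.96 (the same within the second series), -0.50 to 0.92 (EGFP+ against EGFP-, KA), -0.48 to -0.04 (the first series), -1.27 to -0.22 (saline) and 0.85 to 1.98 (KA against saline, EGFP+).

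Counts of members past the fold moved more. For KA against saline in EGFP- cells, 5 to 15 members were at or above 1 and 2 to 5 at or below -1. Within the second series these were 2 to 13 (13 with pooled counts) and 5 to 7. For EGFP+ against EGFP- KA cells they were 0 to 14 and 0 to 10, with 5 and 10 for titles 20-48 only and 14 and 1 for the second series only. With all titles of the first series they were 0 to 3 and 1 to 10 under the other settings, in saline cells 0 to 5 and 7 to 15, for KA against saline EGFP+ cells 11 to 19 and 0 to 3, and between the series 4 to 19 and 0 to 9. Leaving out each saline EGFP+ cell in turn gave 0 to 5 members at or above 1 in saline cells.

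In EGFP- cells, KA against saline, Scn3b stayed between -3.41 and -1.61 (-4.54 to -1.69 within the second series) and Scn3a between -2.14 and -1.10 (-3.21 to -1.04). Within the second series Cacnb3 stayed between -3.88 and -1.30, Cacna1a between 1.62 and 3.52 and Cacna2d1 between 1.10 and 2.15. With all titles Cacna1a (0.67 to 2.15), Cacna2d1 (0.98 to 3.23) and Cacna1c (0.45 to 2.47) fell under 1 in some setting. So did Cacna1c (0.58 to 2.19) and Scn1a (0.57 to 1.74) within the second series. Cacna1e (-3.17 to -0.02) and Cacng3 (-3.65 to -0.95) also fell short of a difference of 1 there in some setting. No paired analysis was possible because no label ties a cell to a mouse and replicate numbers only name cells. Few cells per group and cells that differ in the number of genes counted both limit the precision, and their parts were not separated.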
